A study of Rattus norvegicus with 8 samples.

Results

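Metallothioneins and ferritins are small families of metal-binding proteins, and 6 rat genes of these families were followed here by their symbols in the array annotation: Mt1m, Mt2A and Mt3 among the metallothioneins, Ftl1 and RGD1560687 among the ferritin light chains, and Fth1, the ferritin heavy chain. RefSeq names RGD1560687 Ftl1l5, a light chain-like copy. The 6 genes had 8 probe sets of the 30323 probe sets of gene classes on the array. Ftl1 and Fth1 each had 2 probe sets. All 8 were among the 15161 probe sets whose mean over all arrays lay above the median probe set, at 6.30 log2 units.

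RNA came from the dorsal hippocampus of male Sprague-Dawley rats that were young adults, drug-naive and of the first generation after the exposed fathers. Nicotine-sired sons descended from fathers that had taken nicotine themselves, at 0.03 mg/kg intravenously for 60 days. Saline-sired sons descended from yoked fathers that received saline. Each group had 4 arrays, 1 per litter, so that no father is represented more than once and replicates are biological. The comparison asks whether the sons' hippocampal transcripts differ with the father's nicotine taking. The tissue was bilateral 1 mm3 micropunches, so in such bulk samples fewer cells of a type and less RNA per cell cannot be told apart. The genes were selected on their measured log2 signals in this same comparison, whose results were known when they were proposed. Their differences between the groups are therefore given as a description, without a test. Counts of statistical calls among them, in any setting, describe that choice and support nothing further.

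Metallothioneins are short, cysteine-rich proteins that bind zinc and copper and buffer the free ions. Their genes are induced by metals through the zinc-sensing transcription factor Mtf1, which binds metal response elements in their promoters, and by glucocorticoids. Mt1 and Mt2 proteins are abundant in astrocytes, whereas Mt3 is the form enriched in brain, first described as a growth inhibitory factor of neurons and known to respond little to metals. Ferritin stores iron in a hollow shell built of heavy chains, which oxidise ferrous iron, and light chains, which aid the mineral core to form. Its mRNAs are held back by iron regulatory proteins when iron is scarce, while the same proteins stabilise the mRNA of the transferrin receptor. Oligodendrocytes and microglia are rich in ferritin.

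In the RefSeq annotation of the GRCr8 assembly Mt1, Mt2A, Mt3 and Mt4 follow each other on chromosome 19. The promoters of Mt2A and Mt3 are shown because metal response elements are the sites by which metallothionein genes can answer to zinc, and Mt1, the neighbour at one end of the cluster, stands beside them for comparison. Each sequence holds the 250 bases before the transcription start, on the minus strand of GRCr8, at chr19:10838709-10838958 for Mt2A, chr19:10856081-10856330 for Mt3 and chr19:10832976-10833225 for Mt1. Capitals mark the core of the metal response element, TGCACNC or TGCGCNC, on either strand, and no marked cores overlap.
Mt2A: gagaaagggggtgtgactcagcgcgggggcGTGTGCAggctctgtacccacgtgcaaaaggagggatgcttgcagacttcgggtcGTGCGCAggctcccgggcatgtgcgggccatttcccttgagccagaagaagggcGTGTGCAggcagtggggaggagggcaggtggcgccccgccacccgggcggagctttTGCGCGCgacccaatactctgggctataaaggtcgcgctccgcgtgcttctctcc
Mt3: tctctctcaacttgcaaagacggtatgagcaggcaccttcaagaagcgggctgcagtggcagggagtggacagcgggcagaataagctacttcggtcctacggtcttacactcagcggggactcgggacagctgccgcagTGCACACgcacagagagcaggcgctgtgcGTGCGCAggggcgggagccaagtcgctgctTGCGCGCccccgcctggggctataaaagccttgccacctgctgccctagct
Mt1: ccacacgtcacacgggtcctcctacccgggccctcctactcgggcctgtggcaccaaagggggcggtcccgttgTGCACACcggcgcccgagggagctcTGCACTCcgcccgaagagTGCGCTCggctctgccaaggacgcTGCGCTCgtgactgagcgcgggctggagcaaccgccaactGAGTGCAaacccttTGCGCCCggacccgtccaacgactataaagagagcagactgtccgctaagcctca
Mt2A held 4 cores, Mt3 held 3 and Mt1 held 6. In the Mt2A promoter they began 220, 165, 111 and 55 bases before the start, and in the Mt3 promoter 110, 81 and 51 bases before it. Of 33469 rat promoters searched the same way, 20.6% held at least 1 core, 1.17% at least 3, 0.266% at least 4 and 0.0269% at least 6. The cores are matches of letters, not measured binding. Besides Mt2A and Mt3, only Ftl1l5 of the 6 genes was matched in the RefSeq promoter table.

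The metallothionein transcripts with the largest difference among the 8 probe sets carried the label Mt1m. On the 4 nicotine-sired arrays its log2 signals were 9.20, 9.20, 8.97 and 9.11, against 8.16, 8.29, 8.25 and 8.55 on the 4 saline-sired arrays. All nicotine-sired arrays lay above all saline-sired arrays, and the lowest nicotine-sired array stood 0.42 above the highest saline-sired one. The means were 9.12 ± 0.107 in nicotine-sired and 8.31 ± 0.169 in saline-sired sons (SD, n = 4 each), a difference of 0.81 ± 0.096 (standard error), or 1.75-fold.

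Mt2A, one of the ubiquitous metal-inducible isoforms, had signals of 12.01, 12.18, 11.95 and 12.02 in nicotine-sired sons, against 11.64, 11.65, 11.55 and 11.73 in saline-sired sons. The groups did not overlap here either. The means were 12.04 ± 0.098 in nicotine-sired and 11.64 ± 0.071 in saline-sired sons (SD, n = 4 each), which differ by 0.40 ± 0.061, or 1.32-fold.

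The probe sets labelled Mt1m and Mt2A cannot be assigned to 1 gene each. The assignments in the annotation name both genes for each of these probe sets. It places the Mt1m probe set on chromosome 19 and the Mt2A probe set on chromosome 20. RefSeq on GRCr8 has these the other way, with Mt2A on chromosome 19 and Mt1m, listed as a pseudogene, on chromosome 20. Of the 28 probes of the Mt2A probe set, 26 match the Mt2A transcript and 28 match the Mt1m transcript. All 13 probes of the Mt1m probe set match the Mt1m transcript.

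Mt3, whose 21 probes are assigned to Mt3 alone, did not separate the groups. Its signals were 11.58, 11.61, 11.43 and 11.55 in nicotine-sired sons, against 11.41, 11.50, 11.45 and 11.61 in saline-sired sons. The lowest value was on a saline-sired array and so was the highest, and the difference of 0.05 ± 0.061 was smaller than its standard error. A further metallothionein, Mt1a (Mt1 in RefSeq, on chromosome 19), which was no member by symbol, had signals of 8.97, 9.05, 9.11 and 9.63 in nicotine-sired sons and 9.22, 9.16, 8.85 and 8.99 in saline-sired sons. These values overlap, with a difference of 0.13 ± 0.14. The probe sets of Mt4, which is known from squamous epithelia, and of Mtl5, a testis protein, lay under the filter, with means of 5.43 and 5.52 in nicotine-sired and 5.75 and 5.70 in saline-sired sons. The Mt4 groups did not overlap, with nicotine-sired arrays lower by a difference of -0.32, and the Mtl5 groups overlapped. A further Mt1a probe set under the filter overlapped as well, with means of 4.88 in nicotine-sired and 4.69 in saline-sired sons.

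**Figure D1:**
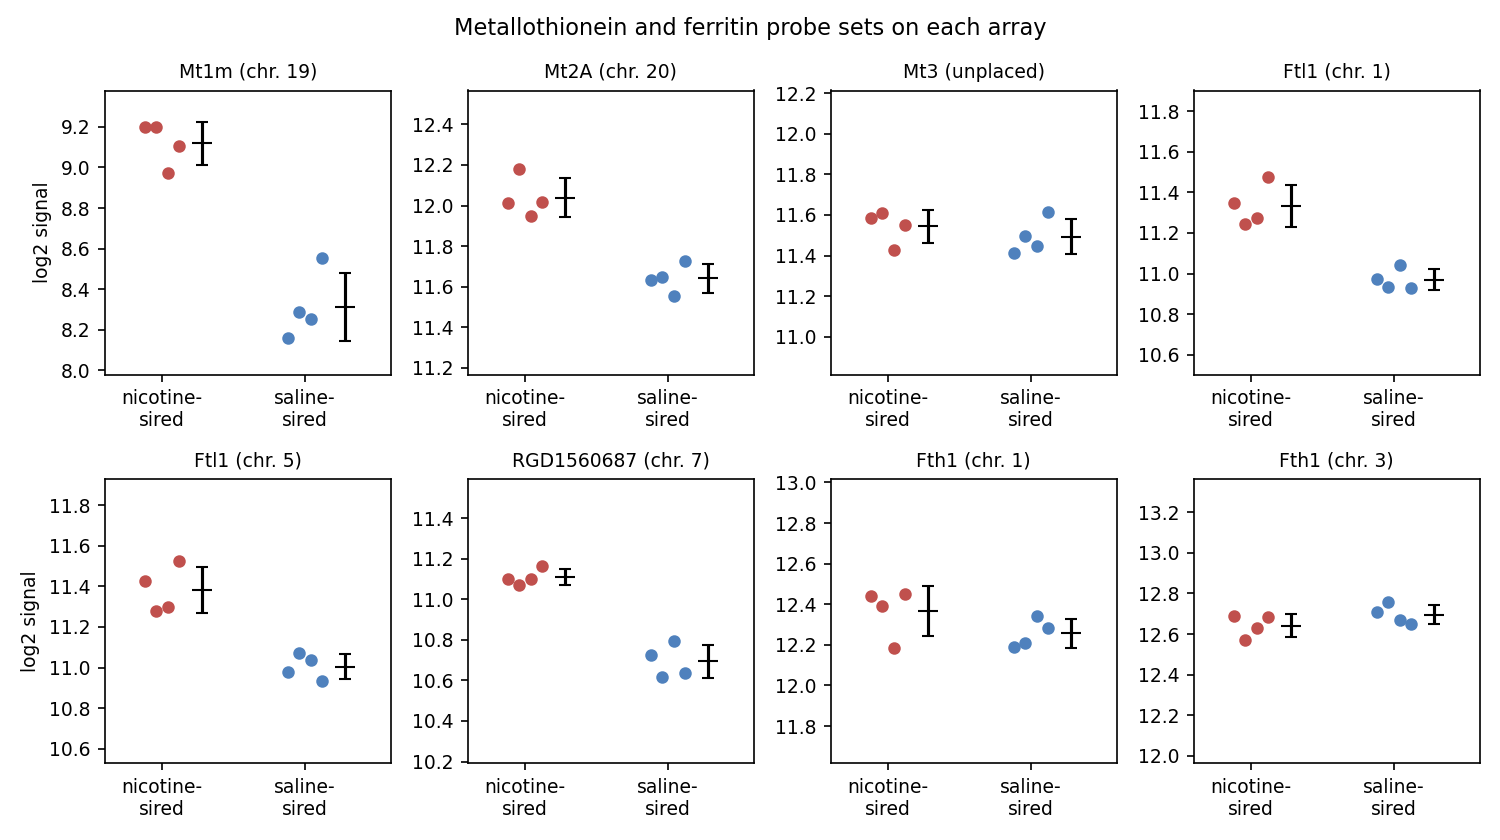
Log2 signal of the 8 probe sets on each array, nicotine-sired in red and saline-sired in blue, 1 point per array, with group means and SD in black and a y axis of equal span but its own level in each panel. The groups separate for Mt1m, Mt2A, both Ftl1 probe sets and RGD1560687, with the widest gap, 0.42, for Mt1m, and they overlap for Mt3 and both Fth1 probe sets.

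The 3 light chain probe sets lay higher in nicotine-sired sons by closely similar amounts, as the plot of signals by array shows. The Ftl1 probe set on chromosome 1, where RefSeq places the gene, had 11.35, 11.24, 11.27 and 11.47 in nicotine-sired sons, against 10.97, 10.93, 11.04 and 10.93 in saline-sired sons. The groups did not overlap, and the difference was 0.36 ± 0.061, or 1.29-fold. The Ftl1 probe set on chromosome 5, where RefSeq has the light chain-like gene LOC100360087, had 11.42, 11.28, 11.30 and 11.52 in nicotine-sired sons, against 10.98, 11.07, 11.04 and 10.93 in saline-sired sons. Its groups were also apart, with a difference of 0.38 ± 0.066, or 1.30-fold. RGD1560687, on chromosome 7, had 11.10, 11.07, 11.10 and 11.17 in nicotine-sired sons, against 10.73, 10.62, 10.79 and 10.63 in saline-sired sons. Its nicotine-sired arrays were the most alike of the 8 probe sets, with an SD of 0.0405, and the difference was 0.42 ± 0.055, or 1.33-fold.

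Light chain transcripts are nearly the same in sequence, so these 3 probe sets are not 3 independent readings. Both Ftl1 probe sets are also assigned to LOC100360087, and the RGD1560687 probe set carries the annotation's flag for cross-hybridisation. A further 4 light chain probe sets passed the filter under other symbols, and they differed by 0.23 to 0.50, with a median of 0.36. RGD1566189 (Ftl1l7 in RefSeq) lay higher by 0.50 ± 0.087, LOC100363177 (a pseudogene, Ftl1-ps14) by 0.37 ± 0.076 and LOC100362384 by 0.35 ± 0.10, each without overlap of the groups. Ftl1l1 overlapped, at 0.23 ± 0.092. LOC100362384 was dim, with means of 6.85 in nicotine-sired and 6.50 in saline-sired sons. RGD1561661, annotated as similar to the light chain, lay under the filter. Its groups overlapped, with means of 3.83 in nicotine-sired and 3.90 in saline-sired sons.

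Both heavy chain probe sets overlapped between the groups. The Fth1 probe set on chromosome 1, where the gene lies, had 12.44, 12.39, 12.19 and 12.45 in nicotine-sired sons, against 12.19, 12.21, 12.34 and 12.28 in saline-sired sons. The third nicotine-sired array was the lowest of all arrays, and the other nicotine-sired arrays lay above every saline-sired one. The difference was 0.11 ± 0.067, or 1.08-fold, and 0.17 ± 0.055 without that array. That was the highest value with 1 array left out, the lowest being 0.08, and with array weights it was 0.03. The Fth1 probe set on chromosome 3, where RefSeq has the pseudogene Fth1-ps5, had 12.69, 12.57, 12.63 and 12.68 in nicotine-sired sons, against 12.71, 12.76, 12.67 and 12.65 in saline-sired sons. Its difference of -0.05 ± 0.045 had the opposite sign. Both assignments name the Fth1 transcript, and the chromosome 3 probe set carries the flag for cross-hybridisation while the chromosome 1 one does not. For that transcript the annotation lists 17 probes and 100% coverage for the chromosome 3 probe set, against 8 probes and 80% for the chromosome 1 one. With opposite signs and overlapping groups, the direction of the heavy chain is not settled by these arrays. The heavy chain-like copy RGD1561106, on chromosome X, had 2 dim probe sets with differences of -0.17 ± 0.092 and -0.31 ± 0.12. Ftmt, the ferritin of mitochondria, lay under the filter, with means of 5.03 in nicotine-sired and 5.19 in saline-sired sons. The heavy chain-like LOC681066, LOC691895 (both probe sets), RGD1560203 and RGD1563378, on chromosome X, also lay under it. All were lower in nicotine-sired sons, with differences from -0.29 to -0.07 and overlapping groups.

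**Figure D2:**
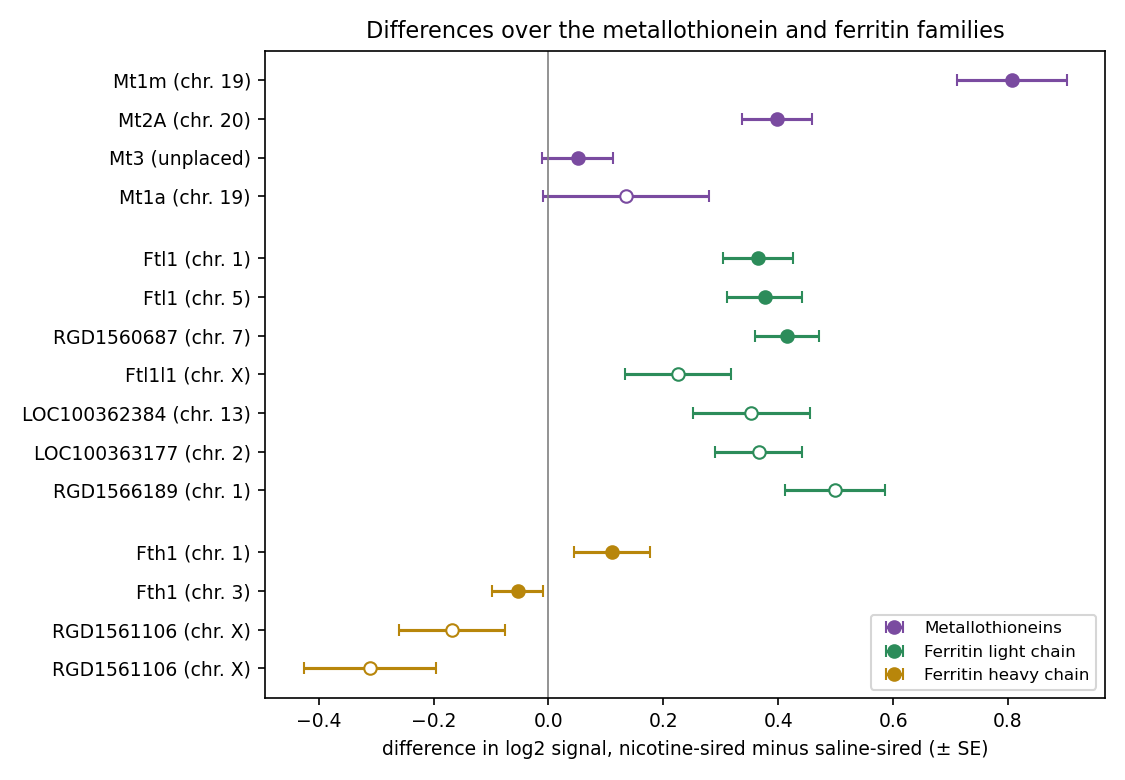
Difference in log2 signal, nicotine-sired minus saline-sired, with standard errors (n = 4 per group), for the 8 probe sets named by symbol (filled) and the 7 further probe sets of the 2 families that passed the filter (open). All 7 light chain probe sets lie between 0.23 and 0.50, the 4 heavy chain ones between -0.31 and 0.11, and the 4 metallothionein ones between 0.05 and 0.81.

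By limma's moderated test with Benjamini-Hochberg adjustment over all kept probe sets, 5 of the 8 probe sets were called higher and 0 lower at an adjusted p of 0.05, against 1.18% of kept probe sets called higher, 0.884% called lower and 2.06% called in either direction. All 4 nicotine-sired arrays lay above all saline-sired ones in the same 5 probe sets, against 8.19% of kept probe sets. In 0 of the 8 did all of them lie below, against 6.15%, and 14.3% of kept probe sets separated the groups in either direction. These counts describe how the genes were proposed and support nothing further. The median difference was 0.40 over the 3 metallothionein probe sets, 0.38 over the 3 light chain ones and 0.03 over the pair of heavy chain ones. Over all kept probe sets it was 0.02.

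The spread of the arrays inside each group does not enter the difference between the groups, so it was examined on its own. Each value was taken relative to its group's mean, which leaves 8 deviations per probe set, and all 28 pairs were correlated. Exact p-values came from the 576 reorderings within groups, two-sided, with 0.00174 as the smallest p they can give, and were adjusted over the 28 pairs. All probe sets of an array share its RNA and hybridisation, and the share of other probe-set pairs with such an r was not computed. A small p therefore does not show a relation particular to these genes.

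Mt1m and Mt3 deviated together, although Mt1m separated the groups and Mt3 did not. Pearson's r was 0.97 (exact permutation p = 0.00347, adjusted 0.0486) and Spearman's rho 0.95 (exact permutation p = 0.00694, adjusted 0.0972). Without the 2 arrays farthest from the median, both saline-sired, r was 0.97. The third nicotine-sired array was the lowest of its group and the fourth saline-sired array the highest of its group in all 3 metallothionein probe sets. Mt2A correlated with Mt3 at r = 0.77 (exact permutation p = 0.0521, adjusted 0.292) and rho = 0.69 (exact permutation p = 0.0781, adjusted 0.4375). With Mt1m, whose transcript the probes of both probe sets match, r was 0.68 (exact permutation p = 0.0747, adjusted 0.348) and rho 0.48 (exact permutation p = 0.22, adjusted 0.685).

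Among the ferritins, Ftl1 on chromosome 1 and RGD1560687 deviated together with r = 0.77 (exact permutation p = 0.00347, adjusted 0.0486) and rho = 0.74 (exact permutation p = 0.00694, adjusted 0.0972). That relation rested in part on the arrays farthest from the median, since r was 0.48 without the 2 of them. The Ftl1 probe sets correlated at r = 0.83 (exact permutation p = 0.0365, adjusted 0.292) and rho = 0.83 (exact permutation p = 0.0781, adjusted 0.4375). The third light chain pair, Ftl1 on chromosome 5 with RGD1560687, stood lower, at r = 0.39 (exact permutation p = 0.257, adjusted 0.609) and rho = 0.29 (exact permutation p = 0.432, adjusted 0.772). The fourth nicotine-sired array was the highest of its group in all 3 light chain probe sets. Between the Fth1 probe sets r was 0.0079 (exact permutation p = 0.986, adjusted 0.986) and rho -0.048. The chromosome 3 one correlated with Ftl1 on chromosome 5 at r = 0.79 (exact permutation p = 0.0451, adjusted 0.292) and rho = 0.81 (exact permutation p = 0.0295, adjusted 0.275). With 4 arrays in each group, no correlation was computed within a group alone.

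**Figure D3:**
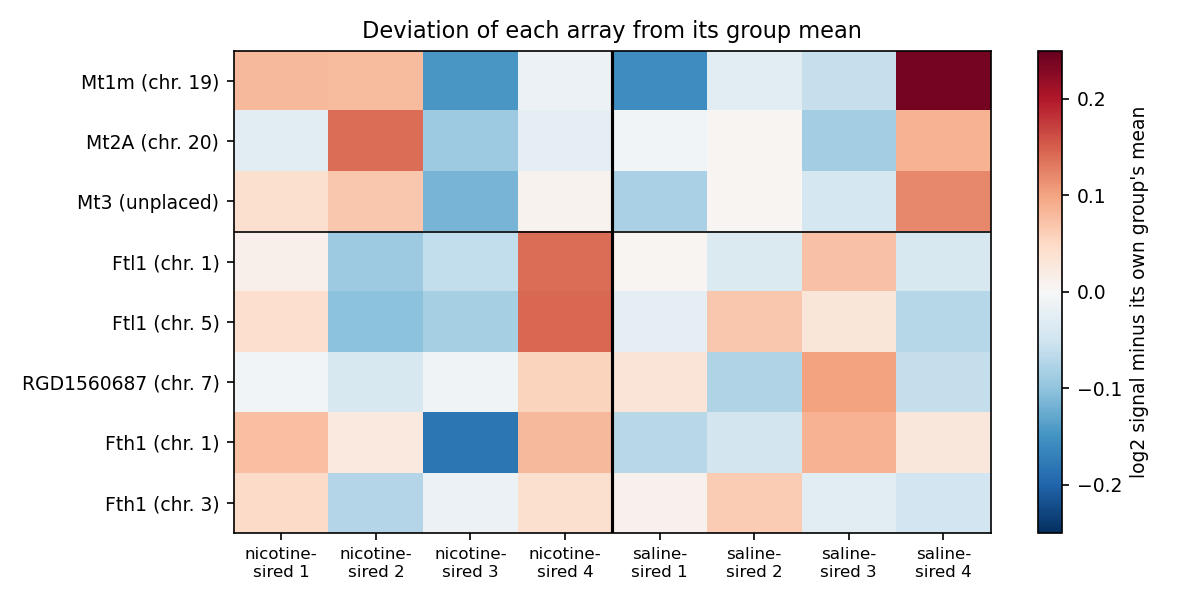
Deviation of each array from its own group's mean, in log2 units, for the 8 probe sets (rows) on the nicotine-sired and then the saline-sired arrays (columns), red above and blue below the mean. The 3 metallothionein probe sets are lowest of their group on the third nicotine-sired and highest on the fourth saline-sired array, and the light chain probe sets are highest of their group on the fourth nicotine-sired array.

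The kept probe sets whose deviations were most like the mean of the metallothioneins over the 8 arrays were Oxct1 (r = 0.97), the ketone body enzyme of mitochondria, Lhx2 (0.96), a homeobox factor, the magnesium transporter Slc41a1 (0.95), Afmid (0.95) and Mrpl16 (0.95). Those most like the mean of the ferritins were Paqr6 (0.97), the fatty acid oxidation enzyme Ech1 (0.96), Lrrc46 (0.96), the apoptosis effector Bak1 (0.96) and Tm9sf1 (0.95). With 8 arrays and 15161 probe sets such values are a description of these arrays, which share RNA and hybridisation.

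Array medians ran from 6.25 to 6.35 log2 units, and marker signals of several cell types moved with the same comparison. The 12 myelin markers averaged 11.01 to 11.50 in nicotine-sired and 10.73 to 11.17 in saline-sired sons, all 12 lying higher by a mean of 0.44. Of the astrocyte markers 11 of 12 were kept, 9 of them higher, and they ran from 10.94 to 10.99 in nicotine-sired and 10.80 to 10.96 in saline-sired sons. The 11 kept microglial markers, all 11 higher, ran from 8.29 to 8.65 in nicotine-sired and 8.15 to 8.38 in saline-sired sons. The 8 CA1 markers, all 8 higher, ran from 8.86 to 10.71 in nicotine-sired and 7.32 to 8.87 in saline-sired sons, and the 5 kept dentate markers, 0 of them higher, from 7.75 to 9.11 in nicotine-sired and 8.995 to 9.81 in saline-sired sons. All 8 markers of neurons were kept, 1 of them higher, at 11.75 to 11.97 in nicotine-sired and 11.95 to 12.05 in saline-sired sons. The 7 kept markers of ependyma, all 7 higher, ran from 7.61 to 8.41 in nicotine-sired and 6.85 to 7.17 in saline-sired sons, and the 10 of endothelium and pericytes, all 10 higher, from 8.45 to 8.61 in nicotine-sired and 8.11 to 8.47 in saline-sired sons. Of the 8 blood markers 2 were kept, each higher, at 7.34 to 8.18 in nicotine-sired and 6.83 to 7.28 in saline-sired sons. The 5 kept choroid plexus markers, 4 of them higher, ran from 5.97 to 10.71 in nicotine-sired and 5.84 to 7.54 in saline-sired sons. The part of the ependymal, vascular, microglial, neuronal, dentate, blood and choroid plexus signals in the metal-binding genes' differences was not tested.

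With the mean marker score as a covariate, the metallothioneins and the light chains moved in opposite ways. The scores themselves differed between the groups, so with 8 arrays these fits separate score and group poorly. Standard errors of the 8 probe sets were larger than without a covariate. Whether cell types account for the shifts was not tested. With the astrocyte score the difference of Mt1m was 0.61 ± 0.11, that of Mt2A 0.29 ± 0.076 and that of Mt3 -0.06 ± 0.075. With the myelin score Mt1m stood at 0.90 ± 0.15 and Mt2A at 0.55 ± 0.076, both above the values without a covariate. The light chains did the reverse. With the myelin score Ftl1 on chromosome 1 stood at 0.24 ± 0.086, Ftl1 on chromosome 5 at 0.24 ± 0.092 and RGD1560687 at 0.33 ± 0.085, and with the astrocyte score at 0.42 ± 0.089, 0.42 ± 0.097 and 0.50 ± 0.074. With the CA1 score Mt1m was at 0.66 ± 0.16 and RGD1560687 at 0.52 ± 0.087. In each of these 3 fits limma called 0 of the 8 probe sets and 0 of all kept probe sets, while 1586, 984 and 1484 kept probe sets had an unadjusted p under 0.05 with the astrocyte, myelin and CA1 score.

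**Figure D4:**
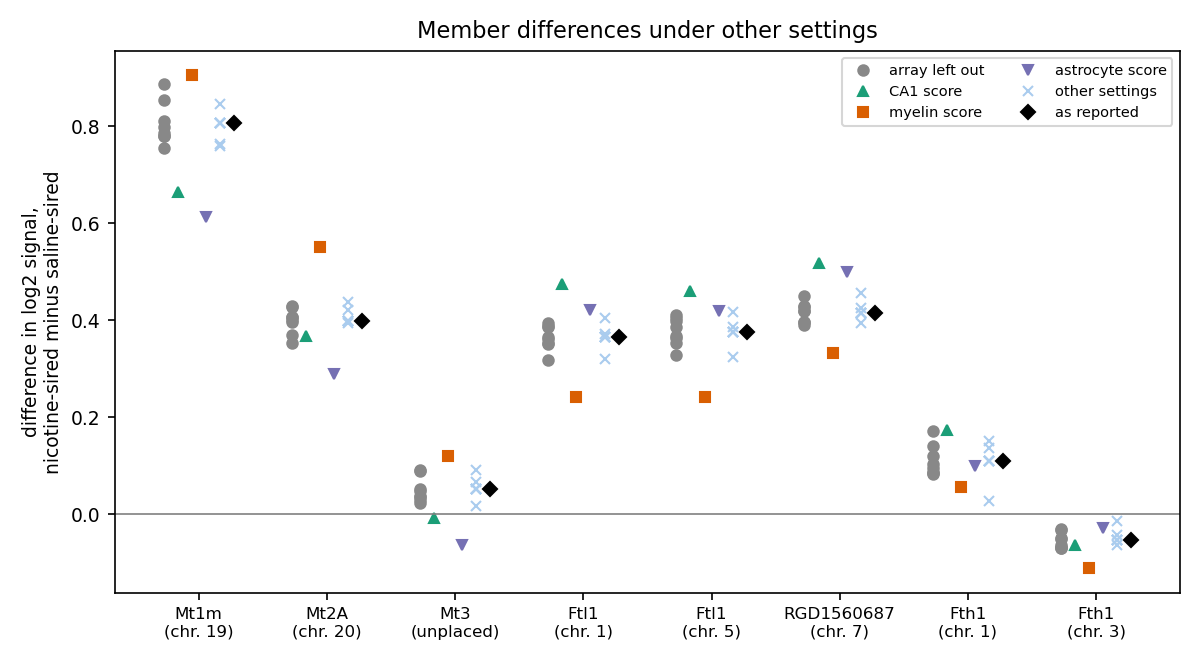
Difference in log2 signal, nicotine-sired minus saline-sired, of the 8 probe sets as reported (black diamonds) and under 18 other settings: each array left out (grey), a CA1, myelin or astrocyte marker score as a covariate (coloured) and the other settings (crosses). Mt1m stays between 0.61 and 0.90, the light chain probe sets between 0.24 and 0.52, and Mt3 lies on both sides of 0.

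Calls over the whole array depended on single arrays, and those of the 8 probe sets with them. Since the 8 were proposed on this same comparison, their calls are a description and not a test of them. By limma with Benjamini-Hochberg adjustment, 0 of the 8 passed without the first, the second or the third saline-sired array, when 0, 8 and 0 of all kept probe sets passed (2724, 2915 and 2932 at an unadjusted p under 0.05). Without the first or the third nicotine-sired array, or the fourth saline-sired one, 3 of the 8 and 80, 98 and 70 of all kept probe sets passed. Without the second or the fourth nicotine-sired array, 5 of the 8 and 672 and 737 of all kept probe sets passed. The differences themselves moved less, and with any 1 array left out Mt1m lay between 0.75 and 0.89, Mt2A between 0.35 and 0.43, the chromosome 1 and chromosome 5 probe sets of Ftl1 between 0.32 and 0.41, and RGD1560687 between 0.39 and 0.45.

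Other genes of metal handling, of the antioxidant response and of the glucocorticoid-induced list were seldom called, as were probe sets over the whole array. Of 110 genes in 5 lists (zinc, iron and heme, copper, antioxidant response and glucocorticoid-induced genes), 92 had a kept probe set, and by limma with Benjamini-Hochberg adjustment 0 passed as higher and 1 as lower, against 2.06% of all kept probe sets called in either direction. The median difference over the 92 was 0.07, with 62 higher and 30 lower, beside 0.02 over all kept probe sets, of which 8240 were higher and 6921 lower. At an unadjusted p under 0.05 there were 21 of the 92, against 3638 of the 15161 kept probe sets (24%).

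The 1 gene that passed was Tfrc, the transferrin receptor, by which cells take up iron. It had 9.35, 9.69, 9.60 and 9.66 in nicotine-sired sons, against 9.91, 10.11, 9.97 and 9.93 in saline-sired sons. All nicotine-sired arrays lay below all saline-sired arrays. Tfrc fell by 0.40 ± 0.085 log2 units, with limma's Benjamini-Hochberg adjusted p = 0.0476, close to the threshold. It passed in 4 of 18 other settings (not with median centring), and over these 18 the adjusted p ran from 0.0209 to 0.737. The call was lost without the first or the third nicotine-sired array and without any 1 of the saline-sired arrays (adjusted p = 0.0702 to 0.127), with differences between -0.44 and -0.33 whichever array was left out.

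In the iron and heme list 25 of 35 genes were kept, 17 higher and 8 lower, with a median of 0.07, and Tfrc alone passed by limma (10 at an unadjusted p under 0.05). Cp, the copper-dependent ferroxidase ceruloplasmin, had 7.45, 7.35, 7.32 and 7.88 in nicotine-sired sons, against 6.85, 7.13, 6.95 and 7.05 in saline-sired sons. The groups did not overlap and the difference was 0.51 ± 0.13, but the limma adjusted p was 0.0728. Mcoln1, a lysosomal channel through which iron leaves, differed by -0.21 ± 0.059 (limma adjusted p = 0.0875).

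In the zinc list 21 of 26 genes were kept, 13 higher and 8 lower, with a median of 0.04, and 0 passed by limma (2 at an unadjusted p under 0.05). Mtf1, the factor that reads the metal response elements shown above, had 10.22, 10.06, 10.13 and 10.13 in nicotine-sired sons, against 9.82, 9.93, 9.94 and 9.75 in saline-sired sons. Its groups did not overlap, and the difference of 0.28 ± 0.064 had a limma adjusted p of 0.0598. It passed with array weights and without the second nicotine-sired array, 2 of 18 settings. The zinc importer Slc39a6 differed by 0.48 ± 0.17 (limma adjusted p = 0.136) and by -0.15 ± 0.14 with the CA1 score. Slc30a5, which carries zinc into the secretory pathway, differed by 0.14 ± 0.067 (limma adjusted p = 0.253).

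Copper genes numbered 11 kept of 12, 8 higher and 3 lower, with a median of 0.06, and 0 passed by limma (1 at an unadjusted p under 0.05). The copper pump Atp7a differed by 0.35 ± 0.087 without overlap (limma adjusted p = 0.0678). The copper importer Slc31a1 had 8.86, 9.07, 8.93 and 10.36 in nicotine-sired sons, against 8.85, 8.98, 8.65 and 8.91 in saline-sired sons. Its difference of 0.46 ± 0.29 (limma adjusted p = 0.363) rested on the fourth nicotine-sired array and was 0.11 without it. App, the copper-binding amyloid precursor, differed by 0.06 ± 0.045 (limma adjusted p = 0.408).

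Of the antioxidant genes 22 of 23 were kept, 14 higher and 8 lower, with a median of 0.11, and 0 passed by limma (7 at an unadjusted p under 0.05). Nfe2l2, the transcription factor Nrf2, had 9.91, 9.83, 9.87 and 10.10 in nicotine-sired sons, against 9.48, 9.63, 9.48 and 9.70 in saline-sired sons, without overlap. Its difference was 0.36 ± 0.080 with a limma adjusted p of 0.0549, and it passed in 3 of 18 settings, with median centring among them. Nqo1, a quinone reductase under its control, differed by 0.39 ± 0.093 (limma adjusted p = 0.0615) and Sod2, the superoxide dismutase of mitochondria, by -0.21 ± 0.066 (limma adjusted p = 0.111). Both genes separated the groups, in opposite directions.

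The glucocorticoid-induced list, chosen because these hormones also induce metallothioneins, had 13 of 14 genes kept, 10 higher and 3 lower, with a median of 0.07, and 0 passed by limma (1 at an unadjusted p under 0.05). That 1 gene was Nr3c1, the glucocorticoid receptor itself, which the list holds beside Nr3c2 as a receptor rather than as an induced target. Nr3c1 differed by 0.38 ± 0.11 (limma adjusted p = 0.0856). Pdk4, a kinase that restrains pyruvate oxidation, differed by 0.28 ± 0.13 and the clock gene Per1 by 0.20 ± 0.10 (limma adjusted p = 0.214 and 0.275). With the CA1 score Per1 stood at -0.11.

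**Figure D5:**
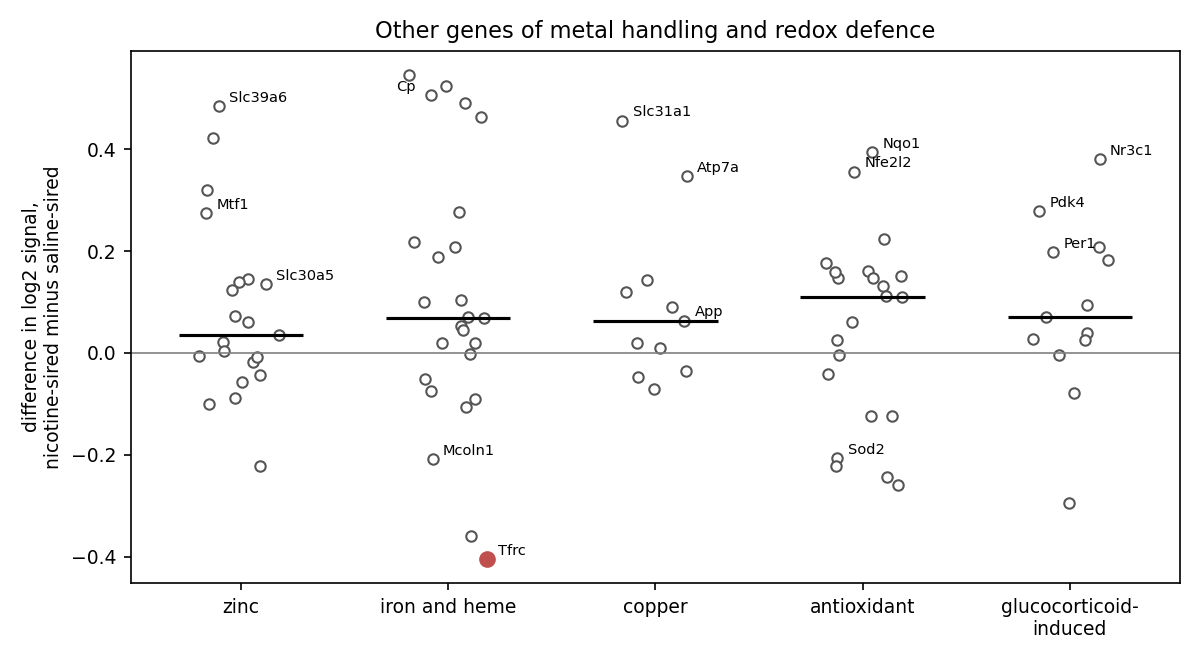
Difference in log2 signal, nicotine-sired minus saline-sired, of the 92 kept genes in 5 lists, 1 point per gene, with black lines at list medians. The filled point is Tfrc, the 1 gene past an adjusted p of 0.05, labels mark the 3 genes with the smallest p in each list, and the medians lie between 0.04 and 0.11.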

How the data were processed

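The sons' log2 signals of 36685 probe sets on 8 Affymetrix arrays were used as deposited by the authors, who gave the same values in a value table and an analysis table (largest difference 0). MAS5 is named, without a version, in the submitters' processing notes. Not given in the sources used here are the summary and normalization behind the log2 values and the array model. Control classes (6362 probe sets) were left out, as were the authors' p-values and ratios. The filter kept probe sets whose mean over all 8 arrays exceeded the median gene-class probe set. No detection calls were used.

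Groups were compared with limma 3.58.1 in R 4.3.3 by a linear model per probe set and moderated, two-sided tests with an intensity trend (eBayes). Adjustment was by Benjamini-Hochberg over 15161 probe sets, at a threshold of 0.05. The fit was tested on simulated data. Lists took 1 probe set per gene, the brightest on average. The number of arrays limits the precision.

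The members and lists were chosen with earlier results of these data known. Named were all member probe sets, and the other probe sets assigned to these families, with the 10 that did not pass the filter among them. Named as well were the 3 genes of smallest p and up to 6 passing genes per list, and the 5 genes most like each family within groups. Marker lists were averaged per array. Alternatives covered filters, normalization, variance model, array weights, a litter block, marker covariates and each array left out. Promoters are from RefSeq (GRCr8), and the array annotation cites Rnor_5.0, so no coordinates of probe sets are given.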

Additional observations from a re-analysis of the deposited data

Results flagged for a closer look

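Of 80 groups of 4 arrays, 5 contained an array that stood far apart from its 3 fellows, where chance gives about 1 in 20 groups. All 5 were the fourth nicotine-sired array. It stood at 6.02 in the probe set of the heavy chain-like RGD1561106 whose groups did not overlap, at 9.84 in Mcoln1 and at 10.36 in Slc31a1. The mean of the choroid plexus markers was 10.71 on it, against 5.97 to 6.02 on the other nicotine-sired arrays and 5.84 to 7.54 on saline-sired arrays. The mean of the blood markers was 8.18 on it, against 7.34 to 7.47 on the other nicotine-sired arrays and 6.83 to 7.28 on saline-sired arrays. The same array was the highest of its group in the 3 light chain probe sets. Without it Ftl1 differed by 0.32 ± 0.054 on chromosome 1 and 0.33 ± 0.059 on chromosome 5, RGD1560687 by 0.40 ± 0.059, Mt1m by 0.81 ± 0.11 and Mt2A by 0.41 ± 0.067.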

How the results depend on the processing

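The median difference of the metallothionein probe sets (0.40) was 0.55 with the myelin and 0.29 with the astrocyte score as a covariate, and 0.35 to 0.43 with 1 array left out. That of the ferritin probe sets (0.36) was 0.46 with the CA1 and 0.24 with the myelin score, and 0.32 to 0.39 with 1 array left out. All other settings kept both within the spread between arrays. Among them, the filters, eBayes without a trend and the litter block cannot change a difference, so their agreement was fixed in advance. Over all kept probe sets, limma called 313. It called 181 with a stricter filter, 155 without a filter, 1201 with array weights, 0 with each marker score and 0 to 737 with 1 array left out. Quantile normalization (303), median centring (290) and eBayes without a trend (233) stayed within 1.5 times. Higher and lower calls were 199 and 91 with median centring, 82 and 99 with the stricter filter and 97 and 58 without a filter, beside 179 and 134. In the 5 lists limma called 1 gene. It called 10 with array weights (6 higher, 4 lower), 0 without a filter, with quantile normalization, without a trend or with any marker score, and 0 to 6 with 1 array left out. With median centring it also called 1, but a higher one, Nfe2l2 (0.40, limma adjusted p = 0.0489), in place of Tfrc (-0.37, adjusted p = 0.0537). Slc39a6 and Per1 changed sign with the CA1 score (-0.15 and -0.11). The causes were not tested. The saline fathers were yoked, and whether same-numbered litters form pairs was not settled here. The main fit did not pair them, and correlations of deviations cannot decide it. Deviations of same-numbered arrays correlated at -0.14, 0.18, -0.052 and -0.17, and with the number as a replicate block limma called 0 probe sets (3326 at an unadjusted p under 0.05), 0 of the 8 and 0 list genes, with medians as without the block. The 4 arrays per group limit every value.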
